A study of Mus musculus with 12 samples.

Results

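The 34 genes described here are the tumour suppressor gene Trp53, a set of its known transcriptional targets, and genes of the BCL2 family, the apoptosome and the initiator caspases. They were taken from a fixed list of gene symbols, and 34 of 34 were found in the 2 deposited count tables of 21429 genes each. RNA came from 2 germ cell types of the mouse testis, pachytene spermatocytes (PS), which are in meiotic prophase, and round spermatids (RS), which are haploid and no longer divide. Knockout (KO) animals were Stra8-cre/Hdac3fl/-, with 1 floxed and 1 null allele of Hdac3, the gene of a histone deacetylase found in nuclear receptor corepressor complexes. Controls were Hdac3fl/+, with the genotype label wild type and no Cre named. Stra8-cre drives Cre in the germ line from before the start of meiosis, and both genotypes carried a floxed allele. The groups, KO RS, control RS, KO PS and control PS, had 3 libraries each.

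In the cell, p53 is held at a low level by the ubiquitin ligase MDM2, and stress such as DNA damage frees it to act as a transcription factor. Some of its targets stop the cell cycle or support DNA repair and metabolism, and others promote apoptosis. In the mitochondrial route to apoptosis, BH3-only proteins act on the antiapoptotic members of the BCL2 family and on the pore formers BAX and BAK, and released cytochrome c then assembles APAF1 and caspase 9 into the apoptosome. Germ cells that fail meiotic checkpoints are removed by apoptosis in the testis.

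Library totals were 11205732 to 17467583 counts. In each group 1 library, called the remaining replicate, could be tied to its group and not to 1 title, and it was the shallowest. Levels are counts scaled to library size and composition (CPM), and libraries are given in the order replicate 1, replicate 3 and remaining replicate. Hdac3 had 13.5, 14.004 and 17.1 CPM in KO RS against 42.3, 48.7 and 52.9 CPM in control RS, and 17.8, 17.9 and 24.8 CPM in KO PS against 61.9, 53.01 and 82.5 CPM in control PS. It fell in both cell types, with log2 fold changes of -1.68 ± 0.19 SE in RS and -1.67 ± 0.22 SE in PS and edgeR adjusted p-values of 0.00249 and 0.00558. Markers of round spermatids summed to 6654 to 16017 CPM in KO RS and 11195 to 25171 CPM in control RS, against 650 to 1379 CPM in KO PS and 1694 to 3616 CPM in control PS. Markers of pachytene spermatocytes summed to 4582 to 4921 CPM in KO RS and 4714 to 5469 CPM in control RS, against 7500 to 8702 CPM in KO PS and 7664 to 8312 CPM in control PS. Round spermatid markers were higher in every RS library than in every PS library, and pachytene markers lower.

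Promoter sequence was held by RefSeq (GRCm38.p6) for 27 of the 34 genes, in 35 windows from 250 bases before to 50 bases after a start site. The p53 half-site, a consensus of 10 bases that reads the same on both strands, had an exact match in 9 of the 35 windows (25.7%), against 8.36% of all 32851 promoters of the same length. The windows of Aen overlap and hold the same match, which is counted in each. Per gene, a match was found for 8 of 27 (29.6%), against 9.55% of all 27025 genes with a promoter. A pair of half-sites with a spacer of 0 to 13 bases and at most 1 mismatch in 20 bases was found in 3 windows (8.57%), against 1.09% of all promoters. No other motif was searched. The 3 windows belong to Bax, Ccng1 and Cdkn1a, and 220 bases of each are shown because they hold these pairs. Cdkn1a had another window at a start site further downstream (chr17:29093519-29093818), with 0 exact half-sites and 5 mismatches in its best pair. Capitals mark the half-sites of the pair with the fewest mismatches in each window, and each sequence runs 5′ to 3′ on the strand of the gene.
Bax, minus strand, chr7:45466929-45467148: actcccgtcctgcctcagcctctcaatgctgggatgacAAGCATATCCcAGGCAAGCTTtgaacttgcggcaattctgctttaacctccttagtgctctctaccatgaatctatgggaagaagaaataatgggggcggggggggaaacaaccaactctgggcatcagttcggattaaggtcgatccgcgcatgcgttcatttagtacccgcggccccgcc
Ccng1, minus strand, chr11:40755317-40755536: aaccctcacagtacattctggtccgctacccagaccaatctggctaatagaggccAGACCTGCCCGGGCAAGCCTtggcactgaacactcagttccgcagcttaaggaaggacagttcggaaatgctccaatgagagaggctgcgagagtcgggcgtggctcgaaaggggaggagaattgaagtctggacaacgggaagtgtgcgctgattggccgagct
Cdkn1a, plus strand, chr17:29090729-29090948: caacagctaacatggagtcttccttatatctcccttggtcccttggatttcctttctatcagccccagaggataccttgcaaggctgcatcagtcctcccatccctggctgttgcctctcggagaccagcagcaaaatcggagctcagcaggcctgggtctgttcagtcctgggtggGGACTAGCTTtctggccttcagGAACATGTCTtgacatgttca
The pair of Bax begins 212 bases before the start site and has a spacer of 1 base and 1 mismatch. The pair of Ccng1 begins 195 bases before the start and has no spacer and 1 mismatch. The marked pair of Cdkn1a begins 73 bases before the start site of the window shown, with a spacer of 12 bases and 0 mismatches. The 10 bases right after its last marked half-site match the half-site with 1 mismatch. A pair with no spacer and 1 mismatch therefore also lies there, in part outside the capitals. With at most 2 mismatches allowed, pairs were found for 3 of the 11 genes with a promoter that rose in KO RS (27.3%: Aen, Bax and Ccng1). They were also found for 3 of the 14 that did not pass the test there (21.4%: Cdkn1a, Gadd45a and Sesn1). Of all 27025 genes with a promoter, 11.5% had such a pair. Such matches describe the sequence and do not show that p53 binds there, and the genes were chosen as known targets.

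In round spermatids, 14 of the 34 genes rose in KO and 0 fell. The risen genes were Trp53 itself, 9 of its targets outside the BCL2 family (Ccng1, Btg2, Gadd45b, Plk2, Plk3, Rrm2b, Trp53inp1, Phlda3 and Aen), the pore former Bax, the BH3-only genes Pmaip1 and Bid, and the apoptosome gene Apaf1. Their levels in KO RS were 1.75 to 3.37 times those in control RS. Of the 34 genes 32 passed the filter on low counts and were tested. Among all 15934 genes tested, 18.7% were called higher and 12.4% lower at an edgeR adjusted p under 0.05. The tested members had a median log2 fold change of 1.04, against 0.02 over all genes tested, and 27 of them (84.4%) had a positive value, against 50.7% of all genes. In 19 members every KO RS library lay above every control RS library, which was so for 25.7% of all genes. In bulk samples, fewer cells of a type and less RNA per cell cannot be told apart.

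Trp53, on chromosome 11 (69580359 to 69591873, plus strand, GRCm38), had 9.36, 16.8 and 13.8 CPM in KO RS and 6.64, 6.49 and 5.69 CPM in control RS. All KO libraries lay above all control libraries, and within KO replicate 1 was the lowest. The log2 fold change was 1.09 ± 0.26 SE, with an edgeR adjusted p of 0.0138. Mdm2, a p53 target and the ligase that marks p53 for degradation, had 251, 211 and 183 CPM in KO RS and 227, 218 and 209.7 CPM in control RS. Its groups overlapped fully, and the log2 fold change of -0.01 ± 0.17 SE did not pass the test (edgeR adjusted p = 0.957).

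Of the 7 targets that act on the cell cycle and growth, 5 rose in KO RS. Ccng1, the gene of cyclin G1 on chromosome 11 (40748552 to 40755311), had 13.4, 16.5 and 14.7 CPM in KO RS and 5.12, 4.502 and 4.23 CPM in control RS. The 3 KO libraries were close to each other and far from the controls, and the log2 fold change was 1.69 ± 0.22 SE (edgeR adjusted p = 0.00298). The stress gene Gadd45b had 8.49, 9.13 and 9.58 CPM in KO RS and 3.48, 4.303 and 3.09 CPM in control RS, again with no overlap and little spread within a group. Its log2 fold change was 1.33 ± 0.25 SE (edgeR adjusted p = 0.00625). The polo-like kinase gene Plk2 had 8.72, 12.3 and 14.8 CPM in KO RS and 8.03, 6.62 and 5.86 CPM in control RS. Its relative Plk3 had 2.71, 3.095 and 4.71 CPM in KO RS and 1.83, 1.26 and 1.46 CPM in control RS. Neither gene's groups overlapped, and the log2 fold changes were 0.81 ± 0.26 SE for Plk2 and 1.20 ± 0.35 SE for Plk3 (edgeR adjusted p = 0.0404 and 0.0287). Btg2, the gene of an antiproliferative factor that binds the CCR4-NOT deadenylase, had 17.4, 41.4 and 48.3 CPM in KO RS and 13.1, 20.2 and 20.1 CPM in control RS. KO replicate 1 lay below 2 of the control libraries, so that Btg2 was the 1 risen gene whose groups overlapped (log2 fold change 1.01 ± 0.34 SE, edgeR adjusted p = 0.0473).

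The other 2 genes of this class did not pass the test without a replicate block. Cdkn1a, the gene of the cyclin-dependent kinase inhibitor p21, had 3.99, 8.07 and 6.13 CPM in KO RS and 3.796, 3.51 and 3.01 CPM in control RS. Every KO library lay above every control library, but replicate 1 of KO exceeded its nearest control by little. The log2 fold change was 0.82 ± 0.31 SE with an edgeR adjusted p of 0.0685, or 0.0289 with the replicate number as a block. Gadd45a had 1.62, 2.74 and 3.53 CPM in KO RS and 0.569, 1.32 and 1.55 CPM in control RS, without overlap. Its log2 fold change was 1.21 ± 0.46 SE with an edgeR adjusted p of 0.06705, or 0.00848 with the block. Part of its exon sequence (19.1%) overlaps a gene on the opposite strand.

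Among the 4 targets in RNA binding, nucleotide supply and metabolic stress, 1 rose. Rrm2b, the gene of the p53-inducible small subunit of ribonucleotide reductase, on chromosome 15 (37923952 to 37961318), had 4.79, 4.97 and 5.65 CPM in KO RS and 1.27, 1.32 and 2.03 CPM in control RS. This was the largest fold change among the tested members, with a log2 value of 1.75 ± 0.31 SE and an edgeR adjusted p of 0.00563, and the groups did not overlap. The sestrin genes, which act against oxidative and nutrient stress, had no overlap either. Sesn1 had 9.88, 11.8 and 10.6 CPM in KO RS and 7.402, 5.36 and 8.297 CPM in control RS, and Sesn2 had 13.5, 14.7 and 12.1 CPM in KO RS and 11.3, 7.41 and 5.61 CPM in control RS. Their log2 fold changes of 0.63 ± 0.24 SE for Sesn1 and 0.73 ± 0.27 SE for Sesn2 had edgeR adjusted p-values of 0.0699 and 0.0625, and of 0.0197 and 0.00619 with the replicate block. Zmat3, the gene of a zinc finger RNA-binding protein, had 31.9, 17.7 and 25.1 CPM in KO RS and 34.1, 20.7 and 29.5 CPM in control RS, with overlapping groups and an edgeR adjusted p of 0.622.

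Of the 4 proapoptotic targets outside the BCL2 family, 3 rose. Trp53inp1, a p53-inducible nuclear protein gene on chromosome 4 (11156431 to 11174379), had 29.1, 26.5 and 33.3 CPM in KO RS and 9.996, 8.54 and 9.03 CPM in control RS. With a log2 fold change of 1.69 ± 0.19 SE, it had the lowest edgeR adjusted p of the members, 0.00249. Aen, the gene of an apoptosis-enhancing nuclease on chromosome 7 (78895854 to 78911209), had 18.4, 17.3 and 20.6 CPM in KO RS and 5.38, 5.296 and 8.87 CPM in control RS. The lowest KO library of Aen was nearly double the highest control library, and the log2 fold change was 1.54 ± 0.25 SE (edgeR adjusted p = 0.004496). Phlda3, whose product holds back AKT signalling, had 2.25, 4.62 and 3.61 CPM in KO RS and 1.58, 1.59 and 1.55 CPM in control RS. The control libraries were nearly equal and the KO libraries spread upward from them, giving a log2 fold change of 1.16 ± 0.36 SE (edgeR adjusted p = 0.0337). Perp, the gene of a desmosomal membrane protein, had 0.289, 1.22 and 1.0996 CPM in KO RS and 0.127, 0.993 and 0.651 CPM in control RS. In both genotypes replicate 1 of Perp was far below the others, and the difference did not pass the test (edgeR adjusted p = 0.543).

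**Figure D1:**
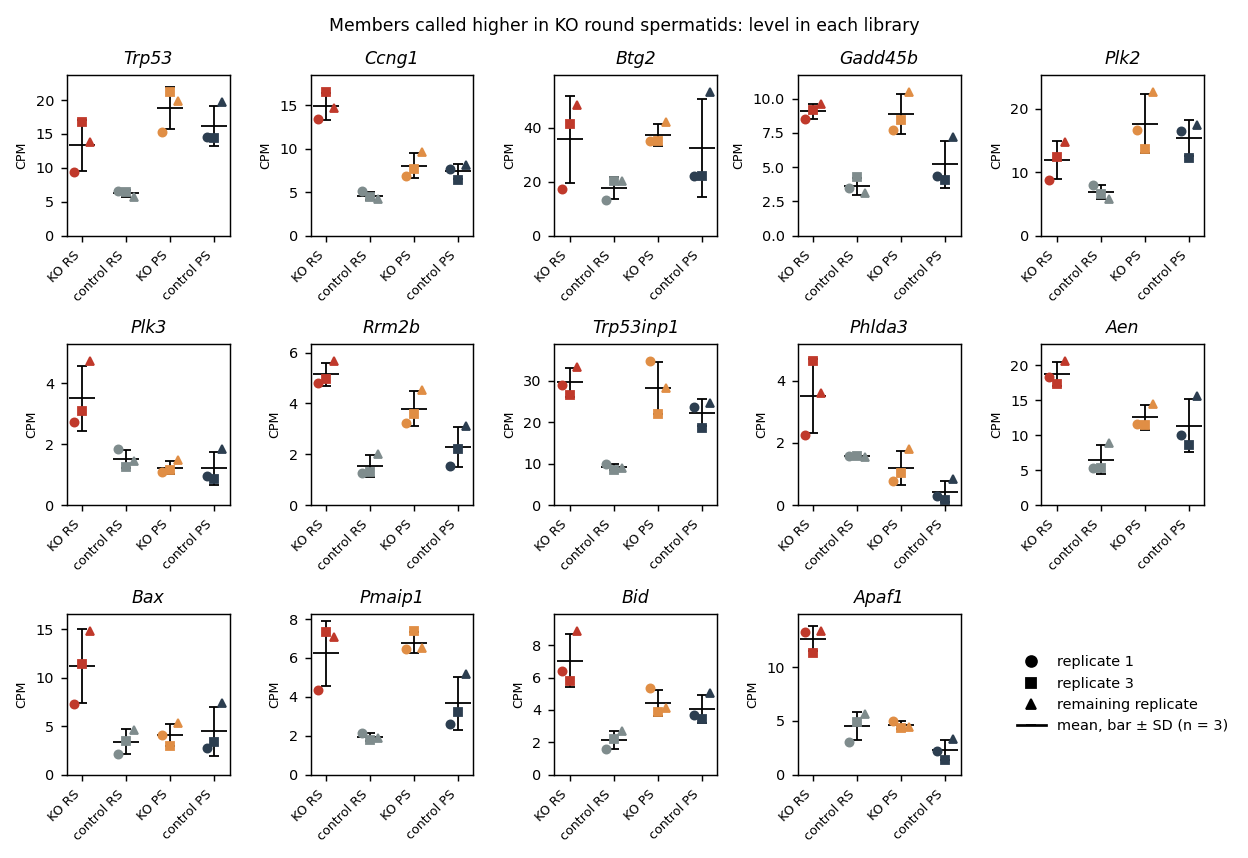
Level in each library (CPM, linear axes from 0) of the 14 genes that rose in KO RS, with KO RS, control RS, KO PS and control PS from left to right; bars give the mean and SD of 3 libraries. In all panels but Btg2 the KO RS libraries lie above the control RS libraries, and the KO PS and control PS libraries overlap in 10 of the 14 panels.

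In the BCL2 family the pore formers moved unequally in RS. Bax, on chromosome 7 (45461697 to 45466898, minus strand), had 7.28, 11.5 and 14.8 CPM in KO RS and 2.15, 3.51 and 4.64 CPM in control RS. In both genotypes replicate 1 was the lowest and the remaining replicate the highest, and the lowest KO library still exceeded the highest control library. The log2 fold change of Bax was 1.72 ± 0.36 SE (edgeR adjusted p = 0.00875). Bak1, the gene of the second main pore former, had 10.6, 8.88 and 9.19 CPM in KO RS and 10.7, 7.15 and 11.2 CPM in control RS, a log2 fold change of -0.01 ± 0.24 SE that did not pass the test (edgeR adjusted p = 0.981). Bok, a relative of both, had 0.693, 2.74 and 2.59 CPM in KO RS and 0.949, 1.99 and 1.46 CPM in control RS, and its groups overlapped (edgeR adjusted p = 0.5098).

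Of the 5 BH3-only genes, Pmaip1 and Bid rose. Pmaip1, the gene of NOXA, which binds the antiapoptotic protein MCL1, had 4.33, 7.36 and 7.07 CPM in KO RS and 2.15, 1.79 and 1.87 CPM in control RS. Bid, whose product links death receptors to mitochondria once caspase 8 has cut it, had 6.41, 5.78 and 8.88 CPM in KO RS and 1.58, 2.18 and 2.68 CPM in control RS. In neither gene did the groups overlap, and the log2 fold changes were 1.69 ± 0.31 SE for Pmaip1 and 1.72 ± 0.31 SE for Bid (edgeR adjusted p = 0.006097 and 0.00602). Of the exon sequence of Bid, 17.7% overlaps Bcl2l13 on the opposite strand, and Bcl2l13 had a log2 fold change of 0.00 (edgeR adjusted p = 0.997).

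Bbc3, Bad and Bik did not pass the test in RS. Bbc3, the gene of PUMA and a direct p53 target, had 7.91, 5.48 and 6.205 CPM in KO RS and 7.72, 2.65 and 6.51 CPM in control RS. Control replicate 3 was low, the other libraries lay together, and the log2 fold change was 0.22 ± 0.37 SE (edgeR adjusted p = 0.653). Bad, a BH3-only gene under control of survival kinases, had 44.1, 30.3 and 30.1 CPM in KO RS and 41.3, 39.7 and 40.8 CPM in control RS, and 20.5% of its exon sequence overlaps Gpr137 on the opposite strand. Bik had 0.404, 1.57 and 2.51 CPM in KO RS and 0.633, 0.463 and 1.06 CPM in control RS, a wide spread among KO libraries. The edgeR adjusted p-values were 0.399 for Bad and 0.207 for Bik.

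The 3 antiapoptotic members did not pass the test in RS. Mcl1, whose short-lived product guards mitochondria, had 71.7, 86.7 and 90.8 CPM in KO RS and 65.1, 72.5 and 71.1 CPM in control RS. Bcl2l1, the gene of BCL-XL, which germ cells need to survive, had 133, 100.2 and 97.9 CPM in KO RS and 127, 102 and 121 CPM in control RS. Both genes had overlapping groups, with log2 fold changes of 0.27 ± 0.17 SE for Mcl1 and -0.07 ± 0.18 SE for Bcl2l1 (edgeR adjusted p = 0.236 and 0.769). Bcl2 had few counts, with 0.635, 0.863 and 1.41 CPM in KO RS and 0.3796, 0.132 and 0.813 CPM in control RS, where 3 counts were worth 0.152 to 0.244 CPM. Its edgeR adjusted p was 0.163.

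Downstream of the mitochondria, Apaf1 rose. This scaffold gene of the apoptosome, on chromosome 10 (90989311 to 91082770), had 13.2, 11.3 and 13.4 CPM in KO RS and 3.04, 4.899 and 5.61 CPM in control RS. The KO libraries formed a narrow band above the controls, with a log2 fold change of 1.49 ± 0.27 SE (edgeR adjusted p = 0.005904). Casp9, the gene of the initiator caspase that binds APAF1, had 10.4, 12.4 and 13.98 CPM in KO RS and 8.604, 4.7005 and 9.35 CPM in control RS, and Casp8, that of the initiator caspase of death receptors, had 1.04, 1.42 and 2.91 CPM in KO RS and 0.443, 0.927 and 0.895 CPM in control RS. In both the KO libraries lay above the control libraries. The log2 fold changes were 0.71 ± 0.28 SE for Casp9 and 1.23 ± 0.51 SE for Casp8, with edgeR adjusted p-values of 0.0806 and 0.0855, and of 0.0127 and 0.0263 with the replicate block.

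Among the death receptor genes, Fas and Eda2r had few counts. The TRAIL receptor gene Tnfrsf10b had 5.14, 4.11 and 6.05 CPM in KO RS and 4.302, 5.83 and 4.88 CPM in control RS, with full overlap and an edgeR adjusted p of 0.938. Fas, with 0.116, 0.304 and 0.785 CPM in KO RS and 0.316, 0.331 and 0.325 CPM in control RS, did not pass the filter on low counts. Eda2r, the gene of the ectodysplasin A2 receptor, had 0.231, 0.507 and 0.707 CPM in KO RS and 0, 0.0662 and 0.244 CPM in control RS and did not pass the filter either.

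In 7 of the 14 risen genes (Ccng1, Plk3, Rrm2b, Phlda3, Aen, Bid and Apaf1) the KO RS libraries lay above all 9 other libraries of the series, which was so for 35.8% of all genes called higher in KO RS. KO RS replicate 1 was the lowest KO library in 10 of the 14, and the remaining replicate was the highest in 10. Replicate 1 lay above all control RS libraries in 13 of the 14. All 14 were also called with the replicate block, which called 20 members higher (28.8% of all genes), and all 14 by DESeq2 (18.8% of all genes called higher).

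The call held without any single RS library in turn for 9 genes: Ccng1, Gadd45b, Rrm2b, Trp53inp1, Aen, Bax, Pmaip1, Bid and Apaf1. It was lost for Trp53 without KO replicate 3 (edgeR adjusted p = 0.0588) or without the remaining KO replicate (0.05798). Plk2 and Plk3 lost it without KO replicate 3, the remaining KO replicate, control replicate 3 or the remaining control replicate, with edgeR adjusted p-values of up to 0.163 for Plk2 and 0.126 for Plk3. Btg2 and Phlda3 lost it without those libraries and without control replicate 1, with values of up to 0.189 for Btg2 and 0.142 for Phlda3. Without the 4 remaining replicates together, 0 members and 0 of all genes were called in RS by edgeR. The 14 genes then had log2 fold changes of 0.53 to 1.92 and adjusted p-values of 0.0793 or more, and 10 of them were higher at an unadjusted p under 0.05, against 16.5% of all genes.

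Markers of macrophages moved with these genes. The 12 macrophage markers summed to 229, 284 and 302 CPM in KO RS and 88.6, 108 and 83.0 CPM in control RS, against 29.3 to 45.5 CPM in KO PS and 30.1 to 51.1 CPM in control PS, and 11 of the 12 rose in KO RS. The 18 Sertoli cell markers summed to 95.0, 433 and 238 CPM in KO RS and 84.4, 84.8 and 134 CPM in control RS, and 4 of the 16 tested rose. The 10 Leydig cell markers summed to 29.7, 200 and 108 CPM in KO RS and 24.5, 30.8 and 74.0 CPM in control RS, and 2 rose. Of 12 spermatogonial markers 6 rose in KO RS, while their sums were 823 to 949 CPM in KO RS and 857 to 1113 CPM in control RS. Of 12 markers of pachytene spermatocytes 1 rose, and of 14 markers of round spermatids 8 fell. Peritubular markers summed to 287 to 576 CPM in KO RS and 422 to 538 CPM in control RS, with 0 of 12 called, and endothelial markers to 18.1 to 49.1 CPM in KO RS and 19.9 to 30.05 CPM in control RS, with 1 of 8 called higher. No marker was at 0 in all libraries of a group. Their part in the changes of the apoptosis genes was not tested.

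**Figure D2:**
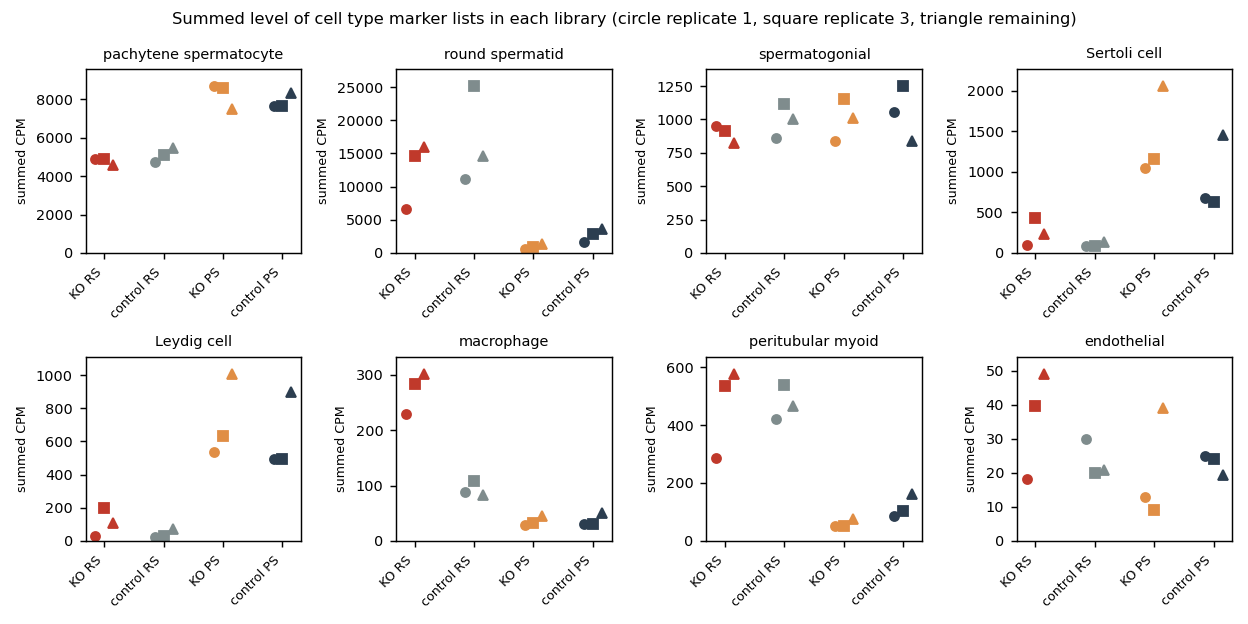
Summed level (CPM, linear axes from 0) of 8 lists of cell type markers in each library, with KO RS, control RS, KO PS and control PS from left to right. Macrophage markers are higher in the 3 KO RS libraries than in the 3 control RS libraries, and Sertoli and Leydig sums are highest in the PS libraries.

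In pachytene spermatocytes, 0 of the 31 tested members passed the edgeR test in either direction, and DESeq2 called 0 as well. Of all 15272 genes tested, 0.91% were called higher and 4.5% lower. At p under 0.05 without adjustment, 9 members were higher in KO PS (8.37% of all genes) and 0 were lower (12.2% of all genes). Their median log2 fold change was 0.26, against 0.06 over all genes tested, and 25 of 31 (80.6%) had a positive value, against 56.1% of all genes. In 7 tested members every KO PS library lay above every control PS library, against 8.63% of all genes.

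With the replicate number as a block, 10 members were called higher in KO PS (10.6% of all genes): Mdm2, Gadd45b, Rrm2b, Phlda3, Bak1, Pmaip1, Bcl2l1, Mcl1, Apaf1 and Casp8. Apaf1 had 5.01, 4.39 and 4.405 CPM in KO PS and 2.16, 1.405 and 3.29 CPM in control PS, without overlap. Its log2 fold change was 1.06 ± 0.35 SE, with an edgeR adjusted p of 0.1001, or 0.0178 with the block. Pmaip1 had 6.45, 7.39 and 6.503 CPM in KO PS and 2.59, 3.24 and 5.197 CPM in control PS, again without overlap, and its edgeR adjusted p was 0.109, or 0.0179 with the block. In both genes the remaining replicate was the highest control library. Without that library, Btg2, Gadd45b, Phlda3, Pmaip1, Apaf1 and Casp8 were called higher (3.38% of all genes), at edgeR adjusted p-values of 0.0289 for Pmaip1 to 0.0497 for Casp8. Without the 4 remaining replicates, 2 were called higher (1.83% of all genes), Apaf1 and Pmaip1, at edgeR adjusted p-values of 0.0485 for Apaf1 and 0.0393 for Pmaip1.

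Casp8 had 2.45, 2.704 and 5.03 CPM in KO PS and 0.782, 1.34 and 2.52 CPM in control PS, where the highest control library just exceeded the lowest KO library (log2 fold change 1.18 ± 0.45 SE, edgeR adjusted p = 0.149, or 0.0126 with the block). Phlda3 had 0.776, 1.02 and 1.82 CPM in KO PS and 0.301, 0.183 and 0.841 CPM in control PS. This was the largest log2 fold change of a tested member in PS, 1.52 ± 0.57 SE, at few counts (edgeR adjusted p = 0.147, or 0.0274 with the block). Gadd45b had 7.701, 8.41 and 10.5 CPM in KO PS and 4.39, 4.03 and 7.18 CPM in control PS. Rrm2b had 3.22, 3.61 and 4.54 CPM in KO PS and 1.56, 2.199 and 3.13 CPM in control PS, and neither gene's groups overlapped. Their edgeR adjusted p-values were 0.14004 for Gadd45b and 0.229 for Rrm2b, and 0.0135 and 0.0477 with the block.

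The abundant survival genes differed by less. Mdm2 had 335, 317 and 258 CPM in KO PS and 259, 249 and 218 CPM in control PS, Bcl2l1 had 212, 209 and 181 CPM in KO PS and 177, 157 and 151 CPM in control PS, and Mcl1 had 114, 116 and 107 CPM in KO PS and 81.8, 90.1 and 101 CPM in control PS. The groups of Bcl2l1 and Mcl1 did not overlap. Log2 fold changes were 0.37 ± 0.17 SE for Mdm2, 0.35 ± 0.16 SE for Bcl2l1 and 0.34 ± 0.16 SE for Mcl1, and the edgeR adjusted p-values of 0.233, 0.234 and 0.245 became 0.0123, 0.01801 and 0.04201 with the block. Bak1 had 28.4, 26.02 and 32.5 CPM in KO PS and 21.4, 21.6 and 22.9 CPM in control PS, without overlap (edgeR adjusted p = 0.215, or 0.0466 with the block). Bax, by contrast with its level in RS, had 4.06, 3.005 and 5.31 CPM in KO PS and 2.77, 3.36 and 7.41 CPM in control PS, with full overlap and an edgeR adjusted p of 0.935. Trp53 had 15.3, 21.2 and 19.9 CPM in KO PS and 14.5, 14.4 and 19.6 CPM in control PS, and Ccng1 had 6.92, 7.63 and 9.65 CPM in KO PS and 7.696, 6.41 and 8.101 CPM in control PS. Neither passed the test in PS, at edgeR adjusted p-values of 0.583 for Trp53 and 0.783 for Ccng1.

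In PS the Sertoli cell markers summed to 1045 to 2058 CPM in KO and 630 to 1459 CPM in control, with 0 of 18 called, or 16 higher with the replicate block. The Leydig cell markers summed to 535 to 1008 CPM in KO PS and 495 to 900 CPM in control PS, with 0 of 10 called, or 5 higher with the block. Of 14 round spermatid markers 8 were lower in KO PS, or 14 with the block. Peritubular markers summed to 49.8 to 74.5 CPM in KO PS and 87.2 to 163 CPM in control PS. Of 11 tested, 3 were lower, or 5 lower and 1 higher with the block. The pachytene, spermatogonial, macrophage and endothelial lists had 0 called without the block. The part of these cell types in the PS values was not tested.

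**Figure D3:**
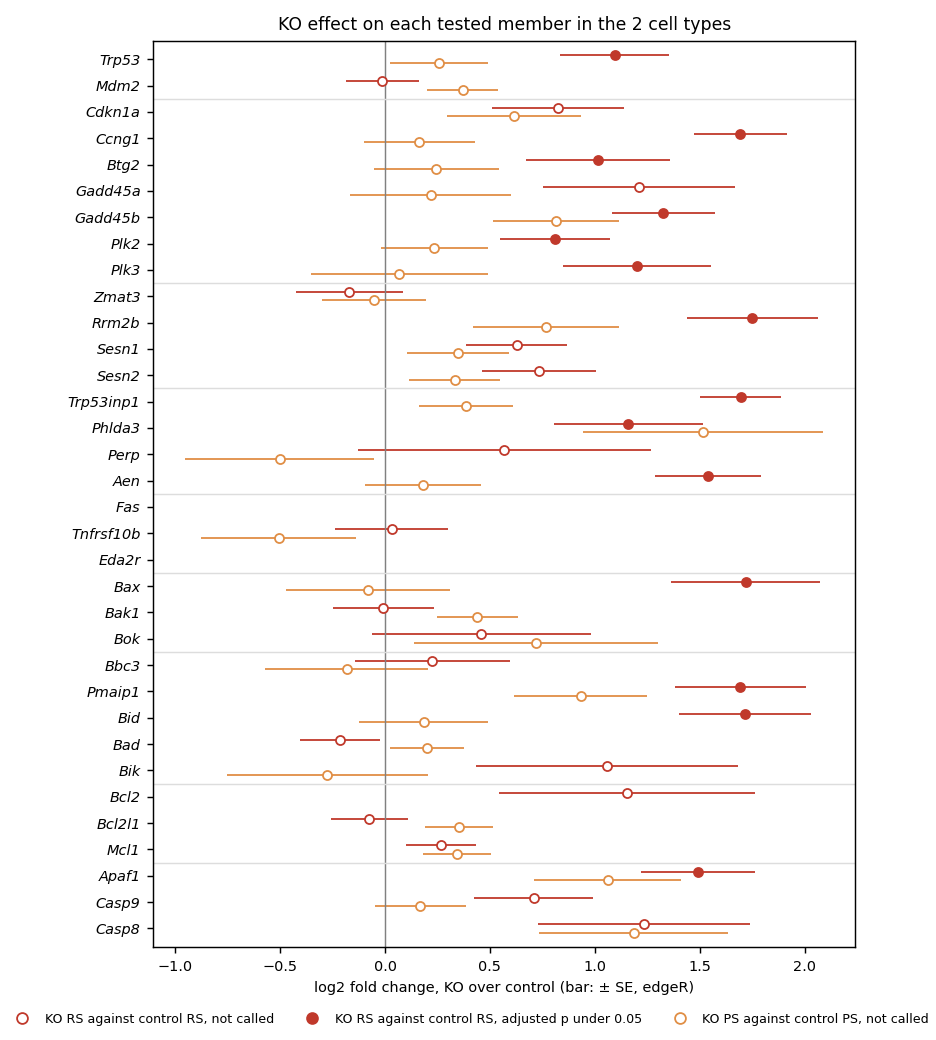
Log2 fold change of KO over control (bars: SE of the edgeR fit) of each tested member in RS and in PS, ordered by role; filled points passed an adjusted p of 0.05. The 14 filled points are all from RS and lie between 0.81 and 1.75, and no PS point is filled.

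Whether the KO effect differed between cell types was tested as an interaction over the 12 libraries, as the effect in RS minus that in PS. No member passed the edgeR test, and 3 of all 16581 genes did (0.0181%, all higher). At an unadjusted p under 0.05, 8 members had a positive difference (11.5% of all genes) and 0 a negative one (2.09% of all genes). The replicate block called 5 members, with 6.74% of all genes called higher. These were Ccng1, Trp53inp1, Aen, Bax and Bid. DESeq2 called 2 members, Ccng1 and Trp53inp1, with 0.793% of all genes called higher. The differences were 1.56 ± 0.31 SE for Ccng1, 1.34 ± 0.28 SE for Trp53inp1, 1.39 ± 0.37 SE for Aen, 1.57 ± 0.41 SE for Bid and 1.83 ± 0.58 SE for Bax on the log2 scale. Their edgeR adjusted p-values were 0.1204, 0.129, 0.187, 0.182 and 0.219, and 0.00635, 0.00297, 0.00635, 0.0178 and 0.0102 with the block. For Apaf1, whose values pointed the same way in both cell types, the difference was 0.46 ± 0.44 SE (edgeR adjusted p = 0.646), and for Casp8 it was 0.08 ± 0.69 SE (edgeR adjusted p = 0.973).

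The members were also compared between cell types within a genotype. In controls, 4 of the 32 tested were higher in RS than in PS and 15 were lower, against 27.8% of all genes higher and 30.9% lower. The 4 were Bbc3, Phlda3, Tnfrsf10b and Apaf1. Bbc3 had 7.72, 2.65 and 6.51 CPM in control RS and 1.44, 1.47 and 1.605 CPM in control PS, with every RS library above every PS library (log2 fold change 1.90 ± 0.38 SE, edgeR adjusted p = 0.000673). The 15 lower genes were Trp53, Ccng1, Plk2, Sesn1, Sesn2, Trp53inp1, Aen, Bak1, Pmaip1, Bid, Bad, Bik, Bcl2l1, Mcl1 and Casp9. Trp53 had 6.64, 6.49 and 5.69 CPM in control RS and 14.5, 14.4 and 19.6 CPM in control PS (log2 fold change -1.36 ± 0.25 SE, edgeR adjusted p = 0.000277). Bak1 had 10.7, 7.15 and 11.2 CPM in control RS and 21.4, 21.6 and 22.9 CPM in control PS (log2 fold change -1.18 ± 0.20 SE, edgeR adjusted p = 0.000164), and neither gene's groups overlapped. Of the lower genes, Bcl2l1 and Mcl1 had the smallest differences, -0.47 ± 0.16 SE for Bcl2l1 and -0.39 ± 0.14 SE for Mcl1, and without the remaining control PS replicate the edgeR adjusted p was 0.0596 for Bcl2l1 and 0.2704 for Mcl1. That library and control RS replicate 3 each brought the number of lower genes to 8 when left out (24.6% of all genes without that library, 25.2% without control RS replicate 3). Leaving out control PS replicate 3 brought the number of higher genes to 2, Phlda3 and Bbc3 (25.3% of all genes). With the block, 4 members were higher in control RS (32.4% of all genes) and 19 were lower (37.2% of all genes), the added ones being Btg2, Gadd45a, Zmat3 and Casp8.

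In KO, 8 of the 32 were higher in RS than in PS and 7 were lower, against 30.5% of all genes higher and 27.6% lower. In neither direction was the share of members called in this test above that of all genes. Ccng1, Plk3, Phlda3, Tnfrsf10b, Bax, Bbc3, Bcl2 and Apaf1 were higher, and Mdm2, Sesn1, Sesn2, Bak1, Bad, Bcl2l1 and Mcl1 were lower. Ccng1 had 13.4, 16.5 and 14.7 CPM in KO RS and 6.92, 7.63 and 9.65 CPM in KO PS, a log2 fold change of 0.88 ± 0.21 SE (edgeR adjusted p = 0.00272), while in controls the RS to PS log2 fold change was -0.68 ± 0.22 SE (edgeR adjusted p = 0.0166). For Bax the RS to PS log2 fold change was 1.44 ± 0.40 SE in KO (edgeR adjusted p = 0.00696) and -0.39 ± 0.41 SE in controls (edgeR adjusted p = 0.432). Trp53 had a log2 fold change of -0.50 ± 0.24 SE in KO (edgeR adjusted p = 0.0858) and -1.36 ± 0.25 SE in controls. These comparisons share libraries with those of KO and control, so the values stand side by side and are not independent. With the block, 12 members were lower in KO RS than in KO PS (34.9% of all genes), the added ones being Trp53, Plk2, Zmat3, Casp8 and Casp9, and Aen and Bid were added to the higher ones, which made 10 (34.6% of all genes). Mdm2 lost its call in KO without the remaining KO RS replicate (edgeR adjusted p = 0.0742) or KO PS replicate 1 (0.0574).

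Levels of different genes were compared per kilobase of exon. Mdm2 was the highest member in all 4 groups, at 42.3 ± 6.69 CPM per kb in KO RS and 42.95 ± 1.73 in control RS, 59.7 ± 7.89 in KO PS and 47.6 ± 4.25 in control PS. Bcl2l1, Mcl1 and Bad took the next 3 places in each group. Bcl2l1 stood at 24.05 ± 4.27 CPM per kb in KO RS and 25.5 ± 2.79 in control RS, and Mcl1 at 24.3 ± 2.94 in KO RS and 20.4 ± 1.15 in control RS. In KO RS these 2 did not differ beyond their spread. Next came Btg2, at 13.01 ± 5.901 CPM per kb in KO RS and 6.49 ± 1.48 in control RS. Bcl2, Eda2r and Fas were the lowest 3 members in every group.

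Within the BCL2 family, the antiapoptotic Bcl2l1 and Mcl1 thus exceeded the pore formers per kb of exon in each group. Bax stood at 7.104 ± 2.41 CPM per kb in KO RS and 2.18 ± 0.7897 in control RS, which placed it 6th and 11th of the 34. Bak1 stood at 3.97 ± 0.388 in KO RS and 4.03 ± 0.9202 in control RS. Bax was thus the higher of these 2 in KO RS and Bak1 in control RS. In PS Bak1 was the higher in both genotypes, with Bak1 at 12.03 ± 1.37 CPM per kb in KO PS and 9.12 ± 0.324 in control PS, and Bax at 2.62 ± 0.734 in KO PS and 2.86 ± 1.605 in control PS. Part of the exon sequence of Bax (12.2%) is shared with another gene model on the same strand, and part of that of Bak1 overlaps Ggnbp1 on the opposite strand. No source used here gives the strand setting of the authors' counting, so reads of genes that overlap on opposite strands may be counted together.

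**Figure D4:**
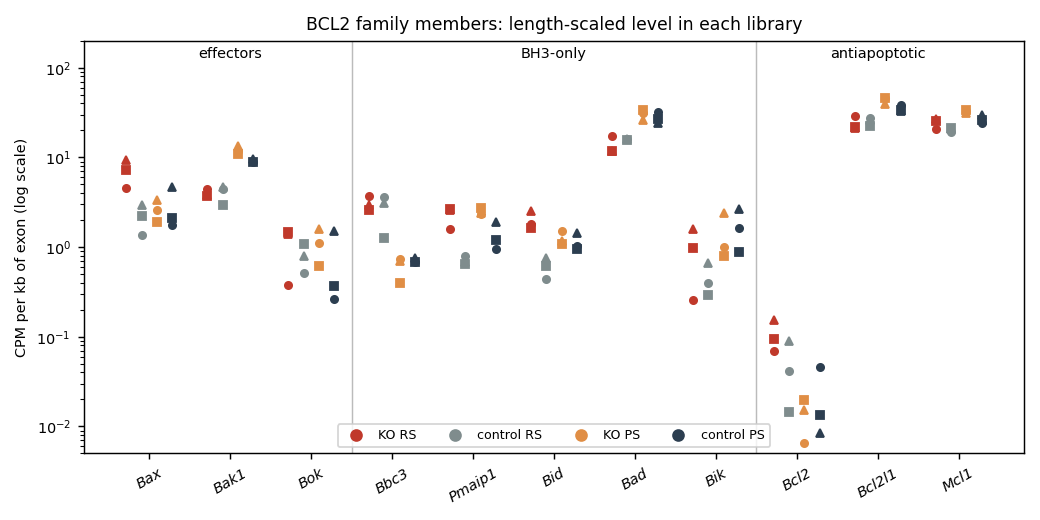
Level in each library (CPM per kb of exon, log axis) of 11 BCL2 family genes, with KO RS, control RS, KO PS and control PS from left to right for each gene and symbols for replicates 1 (circle), 3 (square) and remaining (triangle). Bcl2l1, Mcl1 and Bad lie highest and Bcl2 lowest, and Bax, Pmaip1 and Bid are higher in KO RS than in control RS.

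Other genes of the pathway were read from 4 further lists, beside the 18.7% of all genes called higher, the 12.4% called lower and the median of 0.02 over all genes in RS. Of 18 tested p53 regulators, 4 rose in KO RS and 1 fell, with a median log2 fold change of 0.08, so that the share called higher and the median lay near those of all genes. The DNA damage kinase genes Atm and Chek2 had log2 fold changes of 1.67 for Atm and 1.25 for Chek2, Trp53bp2, which encodes a p53 cofactor, 1.504, and Cdkn2a, which encodes the MDM2 inhibitor ARF, 1.17. Ppm1d, a phosphatase gene that shuts off p53 signalling, fell by 0.62 on the log2 scale. The edgeR adjusted p-values of these 5 were 0.00307 for Atm, 0.0157 for Chek2, 0.00402 for Trp53bp2, 0.0245 for Cdkn2a and 0.0222 for Ppm1d. Atm averaged 73.3 ± 21.8 CPM in KO RS and 23.2 ± 3.35 CPM in control RS (SD, n = 3 each).

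Of 18 further p53 targets tested, 8 rose in KO RS and 2 fell, with a median log2 fold change of 0.82. The largest rises were those of Sfn, which encodes the checkpoint protein 14-3-3 sigma (1.49), Ddb2, a DNA damage recognition gene (1.47), the mTOR inhibitor gene Ddit4 (1.44), Ei24 (1.27) and the spindle protein gene Ckap2 (1.25). Dram1, an autophagy gene (-1.04), and the translesion polymerase gene Polk (-0.72) were lower. Of 8 other BCL2 family genes tested, the BH3-only gene Bmf (1.46), the antiapoptotic Bcl2l2 (1.20) and Bnip3 (1.13) rose and Bcl2l14 (-0.64) fell.

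Of 25 other caspase and execution genes tested, 9 rose in KO RS and 0 fell, with a median log2 fold change of 0.50. Among the risen genes were the mitochondrial nuclease gene Endog (2.04), the inhibitor genes Birc3 (1.56) and Xiap (1.38), and Aifm1 (1.32). The risen genes thus included inhibitors of apoptosis, Birc3 and Xiap, as well as effectors. Endog averaged 1.86 ± 0.502 CPM in KO RS and 0.454 ± 0.172 CPM in control RS, and Xiap averaged 11.8 ± 1.03 CPM in KO RS and 4.55 ± 0.546 CPM in control RS (SD, n = 3 each).

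In PS the same 4 lists held 2 called genes, where 0.91% of all genes were called higher and 4.5% lower. Sfn rose, with a log2 fold change of 1.66 and an edgeR adjusted p of 0.0436, or 0.0104 with the block. Bcl2l14 fell by 1.16 on the log2 scale, with an edgeR adjusted p of 0.00558. Of the 25 caspase and execution genes tested in PS 0 were called, or 7 higher with the block (10.6% of all genes), and their median log2 fold change was 0.43, against 0.06 over all genes. Trp63, the gene of the p53 relative that guards oocytes, had a log2 fold change of -1.36 in PS that did not pass the test (edgeR adjusted p = 0.0606, or 0.0105 with the block).

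**Figure D5:**
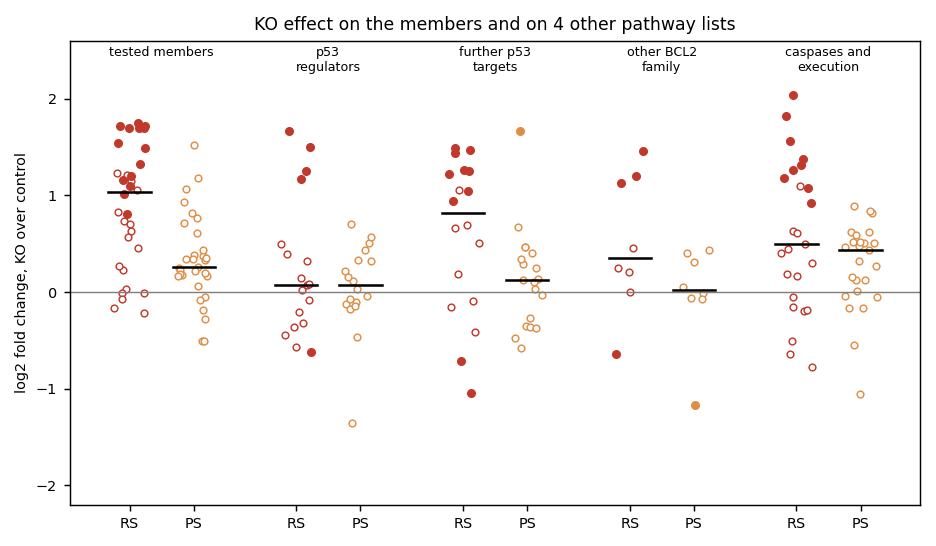
Log2 fold change of KO over control of each tested gene in RS and in PS, for the members and 4 other pathway lists; filled points passed an edgeR adjusted p of 0.05 and lines are medians. The members' medians are 1.04 in RS and 0.26 in PS.

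In the authors' deposited table, 11 of the 34 genes carry the state up in KO RS and 0 the state down, against 11.2% up and 12.7% down of all 21429 genes in it. These are Aen, Apaf1, Bax, Bid, Ccng1, Gadd45b, Plk3, Pmaip1, Rrm2b, Trp53 and Trp53inp1, with log2 fold changes in the authors' deposited table from 0.95 for Trp53 to 1.62 for Rrm2b. For PS the authors' deposited table gives 4 of the 34 the state up (1.56% of all genes), Apaf1, Gadd45b, Phlda3 and Pmaip1, of which Apaf1 has the lowest adjusted p there, 0.0281. The authors' deposited adjusted p-values are 0.0579 for Gadd45b, 0.0634 for Pmaip1 and 0.1002 for Phlda3. The deposited state is therefore not a call at an adjusted p under 0.05, and its counts are not like those of the edgeR calls.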

How the data were processed

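Per the labels' protocols, total RNA was taken with TRIzol and made into strand-specific libraries (TruSeq Stranded Total RNA kit). No source used here says how the cells were isolated. The authors' deposited gene counts, 1 table per cell type, were made on mm10 with tools that include HISAT2 2.1.0 and HTSeq, per the submitters' processing notes, which also name DESeq2. No source used here gives the annotation or the strand setting of the counting. The authors' deposited log2 fold changes and p-values were printed only where named, and 12 columns of normalized values were not used. Replicates are described as biological triplicates, and p-values measure the spread between these libraries.

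The counts were tested with edgeR 4.0.16 (R 4.3.3): TMM scaling, filterByExpr with a minimum count of 10, the quasi-likelihood test, and Benjamini-Hochberg adjustment over all genes tested, with a threshold of 0.05. KO and control were compared in a fit of 6 libraries for each cell type (residual degrees of freedom: 4, with the block 2). The interaction and the comparisons of RS with PS came from 1 fit of all 12 libraries. CPM used library totals times TMM factors of the 12-library fit. A floor of 3 counts served only as a guide to few counts and changed no value or test. Counting intervals, which would cover counting error only, are not given. The fits were tested on simulated data. A log2 change of 1 was recovered for 34% of changed genes in RS and 41% in PS. In the interaction it was recovered for 7% when set in RS and 10% when set in PS. A log2 change of 2 was recovered for 94% in RS and 95% in PS, and in the interaction for 80% and 70%. A missing call thus does not show that a gene was unchanged. Alternatives were the replicate block, DESeq2 1.42.0, other scalings, no filter, the other fit, and each library left out in turn. Leaving out the 4 remaining replicates was added after seeing the data.

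Columns without a number match the description of the sample titled replicate 1, those with the number 2 that of replicate 3, and those with the number 3 only their group. Deviations from group means correlated at 0.353 to 0.454 for libraries of the same number within a cell type and -0.462 to 0.0627 for different numbers. Across cell types the ranges were 0.130 to 0.554 and -0.523 to 0.241. The numbers were therefore read as pairing the samples, for the remaining replicates by elimination. The labels state no such pairing, so it rests on the same counts that the block then uses. Deviations sum to 0 within a group, so the ranges for same and different numbers are not independent. Results with the block depend on this reading.

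All 34 members are named; other genes are named from 4 pathway lists where at most 5 passed the test in a KO comparison, otherwise the 5 with the largest change, apart from a gene not reported here. The members, lists and markers were chosen with earlier results of these data known. Gene coordinates are from GENCODE M21 (GRCm38) and promoters from RefSeq.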

Additional observations from a re-analysis of the deposited data

How the results depend on the processing

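With the replicate block, 10 members were called higher in KO PS (0 without it), 5 in the interaction (0 without it) and 12 lower in KO RS against KO PS (7 without it). DESeq2 called 2 in the interaction. Leaving out each replicate in turn gave 0 to 6 members higher in KO PS and 9 to 18 in KO RS, and 2 to 4 higher and 8 to 16 lower in control RS against control PS. Of all genes, 3.38% were called higher in the PS setting that gave 6. The shares were 24.6% and 25.2% in the settings that gave 8 lower, and 25.3% in that which gave 2 higher. Shares of all genes for the other ends of these ranges are not given, so the ranges are not read as a trait of the members. Without the 4 remaining replicates the members higher were 0 in KO RS and 2 in KO PS (1.83% of all genes in PS). In that setting 9 were lower in control RS against control PS. The share of all genes is not given for these 9, so that count is not read as a trait of the members either. The cause of these differences between settings was not tested. The settings that left libraries out also had fewer libraries and were not matched for depth.

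With scaling by library size only, 20 members and 4236 of all genes were called higher in KO RS (14 and 2974 with TMM). The median of all genes was then 0.27 (0.02 with TMM) and 84.5% of all calls were higher (60.2% with TMM). DESeq2 size factors gave 13 members and 2825 of all genes. Over all genes, the KO comparison in PS called 826 genes, 3476 with the block and 1264 by DESeq2, and that in RS called 4942, and 8736 with the block. No called member changed sign under any alternative run. Precision is limited by 3 libraries a group and, for Fas, Eda2r and Bcl2, by few counts.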
